A study of Mus musculus with 6 samples.

Results

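Fibroblast growth factor (FGF) ligands, their receptors and the co-receptor beta-klotho were read by 20 probe sets of 10 genes on the mouse array used, out of 45037 non-control probe sets in all. They were chosen by gene symbol in the platform annotation, and the genes are Fgf1, Fgf2, Fgf7, Fgf9, Fgf10, Fgf16, Fgfr1, Fgfr2, Fgfr3 and Klb. Brown fat, a tissue that makes heat, was taken from between the shoulder blades (interscapular), and white fat, a store of lipid, from beside the epididymis. Both tissues came from male C57BL/6 mice aged 10 to 12 weeks, which were untreated and kept at ambient temperature, with no transgene or mutation in either group. Each tissue was represented by 3 arrays, and all brown fat was interscapular and all white fat epididymal, so effects of fat type and of depot cannot be told apart. The labels do not say which brown and white samples came from the same mouse, and the 6 arrays were compared as separate samples.

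FGF ligands bind receptor tyrosine kinases on the cell surface together with heparan sulfate, and the receptors signal through the adaptor Frs2 and the MAP kinase cascade. Most ligands act close to the cell that releases them. The endocrine ligands, such as Fgf21, need a klotho protein as co-receptor, and beta-klotho with Fgfr1 forms the Fgf21 receptor of fat cells. In mice, Fgf1 is known as a factor of white fat remodelling on a fatty diet, and Fgf10 with Fgfr2 as a pair needed for white fat cell formation.

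Each probe set has a signal on each array, an intensity in arbitrary units, and a detection call of present, marginal or absent that the array software made from its own probes. The values below are quantile-normalised signals, which can be compared between arrays for 1 probe set but not between probe sets. A probe set entered the limma test where 3 or more of the 6 arrays had a present call, and the p-values were adjusted by the Benjamini-Hochberg method over all 19819 that did; a probe set with an adjusted p under 0.05 is called higher in one tissue. All log2 differences are brown minus white, with their standard error (SE), and 95% intervals are those of the same fit. Where a probe set was absent on every array of the dimmer tissue, the ratio of the tissues is written "at least" and named a bound. It allows only for a dim signal that may be background, not for the spread between arrays. The 95% interval can therefore reach smaller ratios, as for Fgf7 1438405_at (log2 difference -1.60 to -0.34) and Fgfr1 1436551_at (-1.91 to -1.20). Folds and bounds set the means of log2 signals against each other (geometric means), so they can lie above or below the ratio of the mean signals printed with their SD. Nothing states that the arrays of a tissue are from separately collected cohorts, and the p-values measure the spread between these samples; the number of arrays limits the precision.

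The tissue labels were checked first. Ucp1, the uncoupling protein of brown fat, had signals of 12788 to 13251 on the brown arrays and 4.58 to 62.5 on the white arrays, where it was called absent. Lep, which encodes the fat hormone leptin, had 32.1 to 67.2 in brown and 1731 to 1762 in white. A table of the whole series that was deposited beside the array files runs the other way: its columns named for brown gave Ucp1 signals of 22.4 to 93.9 and those named for white 13189 to 13283. There, 12 of the 14 tested probe sets described here have the opposite sign, including all 7 that were called, so every direction below rests on the labels of the array files. Present calls made up 35.6% to 37.5% of the probe sets on the brown arrays and 45.2% to 45.8% on the white arrays, and the median deposited signal was 37.6 to 39.4 and 52.1 to 52.5. The scaling between arrays therefore bears on each difference.

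Fgf1 and Fgfr1 were higher in white fat on every probe set that detected them, by 3.61-fold and 8.62-fold for Fgf1 and by 2.35-fold and 2.91-fold for the Fgfr1 probe sets present in both tissues. The remaining Fgfr1 probe set, absent on all brown arrays, was at least 2.94-fold higher in white. Klb was higher in brown fat by 1.70-fold. For Fgf7, 1 of 2 tested probe sets was higher in white. Fgf2, Fgf9, Fgf10 and Fgfr2 had no probe set past the threshold, and Fgf16 and Fgfr3 were not detected often enough to be tested. In all, 14 of the 20 probe sets, from 8 genes, passed the detection filter; 6 of them were higher in white and 1 in brown. Over all probe sets tested, 29.9% were higher in white, 24.6% in brown and 54.5% in either, so the 7 called probe sets are close to the background share. Of the 14, 6 were present on white arrays alone, and these entered the test only through the tissue in which they were brighter. For 7 of the 14, every array of one tissue lay above every array of the other, as it did for 62.4% of all probe sets tested. With the deposited scaling the count higher in white was 11, and with spike-in scaling it was 12, with 1 and 0 higher in brown.

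**Figure D1:**
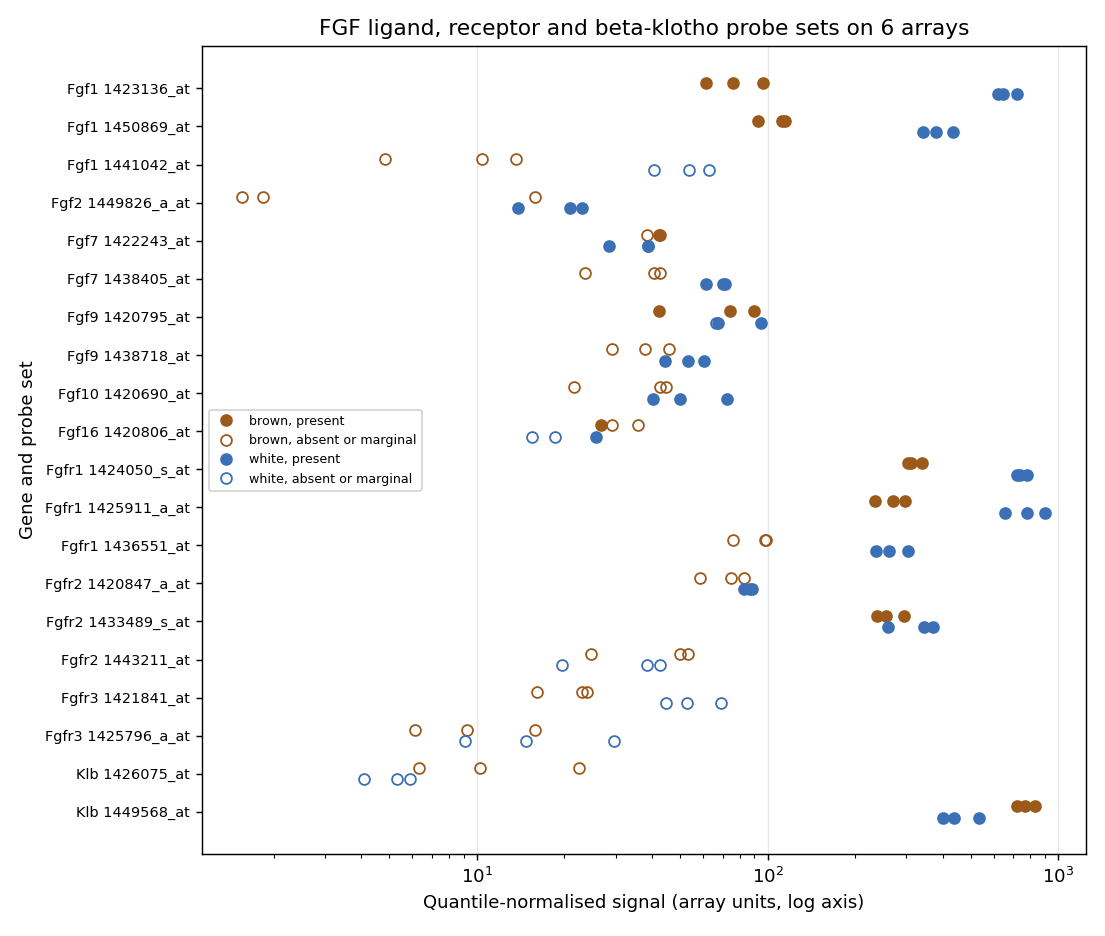
Quantile-normalised signal (x axis, log scale, array units) of the 20 probe sets on each of the 3 brown and 3 white arrays, 1 point per array; filled points were called present and open points absent or marginal. The white points of both detected Fgf1 probe sets and of all 3 Fgfr1 probe sets lie to the right of the brown points, and the brown points of Klb 1449568_at lie to the right of the white ones.

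Among the ligands, Fgf1, an FGF that can bind all of the main FGF receptors, differed most clearly. Probe set 1423136_at had signals of 61.1, 96.7 and 75.8 on the brown arrays and 721, 619 and 643 on the white arrays. It was present on all 6 arrays, and the lowest white signal was far above the highest brown one. The means were 77.8 ± 17.9 in brown and 661 ± 53.4 in white (SD, n = 3), a log2 difference of -3.11 (SE 0.17, limma adjusted p = 1.78e-07). Probe set 1450869_at of the same gene had 112, 92.9 and 115 in brown and 434, 379 and 342 in white, again without overlap. Its log2 difference was -1.85 (SE 0.14, limma adjusted p = 2.04e-06). The 95% intervals of the pair, -3.48 to -2.74 and -2.16 to -1.54, did not overlap, so the sets gave the same direction but a different size. The third Fgf1 probe set, 1441042_at, was absent on all 6 arrays, with 4.81 to 13.7 in brown and 40.6 to 62.7 in white, and was not tested.

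Fgf2, basic FGF, a growth factor for progenitor and endothelial cells, was at the low end of the signal range. Its probe set 1449826_a_at had signals of 15.8, 1.56 and 1.83 on the brown arrays, all called absent, and 13.9, 23.0 and 20.9 on the white arrays, all called present. Brown replicate 1 lay within the white range and the other two brown arrays lay far below it. The log2 difference was -2.40 (SE 0.99, limma adjusted p = 0.0644), with a 95% interval from -4.62 to -0.18 and a bound of at least 1.84-fold towards white. Without brown replicate 1 the difference was -3.50 and it was called (limma adjusted p = 0.00544).

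Fgf7, also called keratinocyte growth factor, is made by stromal cells and binds the epithelial form of Fgfr2. Probe set 1438405_at had signals of 23.5, 40.6 and 42.7 in brown, all absent, and 61.5, 71.1 and 69.9 in white, all present. The tissues did not overlap, and the log2 difference was -0.97 (SE 0.28, limma adjusted p = 0.0144), at least 1.96-fold towards white. This call was lost without white replicate 2 (limma adjusted p = 0.0541) or white replicate 3 (0.0519). Probe set 1422243_at had 42.6, 38.6 and 42.1 in brown, where it was absent, marginal and present, and 38.6, 28.5 and 38.7 in white, where it was present throughout. Its tissues overlapped, with a log2 difference of 0.23 (SE 0.26, 95% interval -0.35 to 0.82, limma adjusted p = 0.48) that became -0.21 with the deposited scaling. The probe sets of Fgf7 therefore differed in sign with quantile normalisation.

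Fgf10, which is close to Fgf7 in sequence and in the receptor it uses, had signals of 21.6, 44.6 and 42.7 in brown, all absent, and 72.3, 49.9 and 40.3 in white, all present. White replicate 3 lay below the upper 2 brown arrays. The log2 difference was -0.61 (SE 0.35, 95% interval -1.40 to 0.18, limma adjusted p = 0.174), and Fgf10 was called higher in white with the deposited scaling (-1.05, adjusted p = 0.0245). Fgf9, a ligand that mesothelial and epithelial cells release in developing organs, overlapped between the tissues on both of its probe sets. Probe set 1420795_at had 42.2, 74.0 and 89.4 in brown and 67.3, 94.7 and 66.3 in white, and was present on 5 arrays. Its log2 difference was -0.20 (95% interval -0.85 to 0.46, limma adjusted p = 0.593). Probe set 1438718_at had 37.7, 45.9 and 29.1 in brown, all absent, and 60.3, 44.2 and 53.1 in white, all present, a log2 difference of -0.50 (95% interval -1.10 to 0.10, limma adjusted p = 0.143).

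Fgf16, known in rats as an FGF of embryonic brown fat, gave no replicated detection in either adult tissue. Its signals were 26.6, 29.2 and 35.8 in brown and 18.6, 15.5 and 25.7 in white. It was called present on 1 array of each tissue, brown replicate 1 and white replicate 3, and absent on the others. The brown signals lay above the white ones, but the probe set did not pass the detection filter; when all probe sets were tested, the log2 difference was 0.64 (limma adjusted p = 0.313).

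Among the receptors, all 3 probe sets of Fgfr1, the main FGF receptor of fat cells and of connective tissue, were higher in white. Probe set 1424050_s_at had signals of 303, 338 and 310.0 in brown and 720.0, 779 and 739 in white, and was present on all 6 arrays. The tissues did not overlap and each was tight, at 317 ± 18.4 and 746 ± 30.0 (SD, n = 3), a log2 difference of -1.23 (SE 0.09, limma adjusted p = 1.21e-06). Probe set 1425911_a_at, also present on all 6 arrays, had 270.0, 233 and 296 in brown and 780.0, 901 and 653 in white, a log2 difference of -1.54 (SE 0.13, limma adjusted p = 6.06e-06). Probe set 1436551_at had 98.0, 98.7 and 76.1 in brown, all absent, and 262, 235 and 303 in white, all present, at least 2.94-fold higher in white (limma adjusted p = 1.91e-05). The 95% intervals of these log2 differences ran from -1.43 to -1.04, from -1.84 to -1.24 and from -1.91 to -1.20, and they overlapped one another.

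Fgfr2, whose splice forms receive Fgf7 and Fgf10 in epithelia and other ligands in mesenchyme, was not called on either tested probe set. Probe set 1433489_s_at, present on all 6 arrays, had 255, 295 and 238 in brown and 369, 258 and 344 in white, where replicate 2 lay within the brown range. The log2 difference was -0.29 (SE 0.15, 95% interval -0.63 to 0.04, limma adjusted p = 0.128). It was called without white replicate 2 (-0.45, adjusted p = 0.0228) and with the deposited scaling (-0.78, adjusted p = 0.00107). Probe set 1420847_a_at had 58.6, 83.0 and 74.9 in brown, all absent, and 86.9, 88.1 and 82.6 in white, all present, a log2 difference of -0.26 (95% interval -0.69 to 0.16, limma adjusted p = 0.263). The third, 1443211_at, was absent on all 6 arrays, with signals from 19.6 to 53.1.

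Fgfr3, a receptor best known from cartilage, was present on no array. Probe set 1421841_at had 16.1, 23.9 and 23.0 in brown, all absent, and 68.8, 44.6 and 52.7 in white, where 1 array was marginal and the others absent. The signals did not overlap, and the log2 difference of -1.40 had an adjusted p of 0.0167 in limma when all probe sets were tested, although neither tissue was called present. Probe set 1425796_a_at was absent throughout, at 6.14 to 15.9 in brown and 9.11 to 29.7 in white.

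Klb, which encodes beta-klotho, was the member higher in brown. Probe set 1449568_at had signals of 721, 767 and 831 on the brown arrays and 533, 438 and 399 on the white arrays, all called present. The tissues did not overlap, with means of 773 ± 55.5 in brown and 457 ± 69.0 in white (SD, n = 3), a log2 difference of 0.77 (SE 0.11, 95% interval 0.51 to 1.02, limma adjusted p = 0.000286). Leaving out any 1 array gave differences of 0.68 to 0.89, all called. The difference was 0.36 with the deposited scaling, where it was called (adjusted p = 0.0173), and 0.36 with spike-in scaling, where it was not (adjusted p = 0.0665). The other probe set of Klb, 1426075_at, was absent on all 6 arrays, with 6.30 to 22.4 in brown and 4.08 to 5.91 in white. Fgfr1 and Klb, the parts of the Fgf21 receptor, thus had opposite signs, with no test made of one gene against the other. Fgf21 itself, named here after its values were seen because it acts through beta-klotho, was absent on all 6 arrays, at 10.4 to 18.6 in brown and 19.5 to 34.3 in white.

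**Figure D2:**
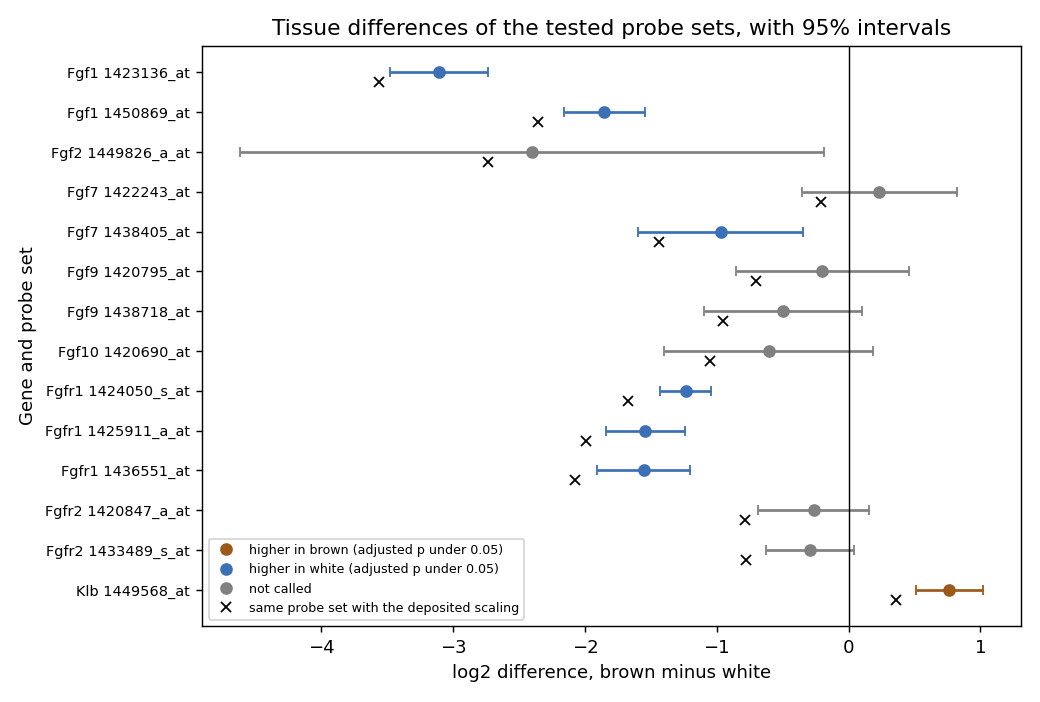
log2 difference, brown minus white (x axis), of the 14 tested probe sets; points are the quantile-normalised values with 95% intervals of the limma fit from 3 arrays per tissue, coloured by call, and crosses are the same probe sets with the deposited scaling. All crosses lie to the left of their points, Klb at 0.36 against 0.77, and the Fgf1 and Fgfr1 probe sets lie below 0 under both.

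The genes whose tissue profile was most like that of Klb, over the 6 arrays and with each probe set's own mean subtracted, were Orc2, Ppp1r11 and Taf12. Their root mean square differences from Klb were 0.05, 0.06 and 0.06 on the log2 scale, and their tissue differences 0.77, 0.69 and 0.75. The profile of Fgf1 probe set 1423136_at, the tested member with the largest difference towards white, was closest to those of Sema3c (root mean square difference 0.05), Tshr (0.12) and Gas6 (0.13), whose tissue differences were -3.16, -3.18 and -3.20. With 2 tissues and 3 arrays each, such likeness mostly measures an equal tissue difference.

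RefSeq promoter windows (GRCm38.p6) were read for 7 of the 10 genes. For Fgfr1 and Fgf16 none was at hand, and Fgf1 was left out of the search. The windows of Fgf2, Fgf7 and Klb are shown. Fgf2 is a ligand present on white arrays alone. Fgf7 has a probe set called higher in white, and Klb is the member called higher in brown. Each sequence is the 250 bases before the annotated start, 5′ to 3′ on the gene's strand, at chr3:37348403-37348652, chr2:126034408-126034657 and chr5:65348161-65348410, all on the + strand. Capitals mark matches to the motifs searched for on both strands: TGACG (a cyclic AMP response half-site), AGGTCA (a nuclear receptor half-site), the box named CCAAT, the box rich in G and C with the letters GGGCGG, the box with the letters TATAAA, the core of ETS sites CCGGAA and the E box with the letters CACGTG.
Fgf2: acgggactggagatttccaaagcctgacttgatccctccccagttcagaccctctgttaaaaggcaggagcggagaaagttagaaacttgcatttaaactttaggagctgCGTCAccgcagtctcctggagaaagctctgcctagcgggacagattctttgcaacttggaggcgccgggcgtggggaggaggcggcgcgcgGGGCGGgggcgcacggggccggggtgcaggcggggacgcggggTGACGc
Fgf7: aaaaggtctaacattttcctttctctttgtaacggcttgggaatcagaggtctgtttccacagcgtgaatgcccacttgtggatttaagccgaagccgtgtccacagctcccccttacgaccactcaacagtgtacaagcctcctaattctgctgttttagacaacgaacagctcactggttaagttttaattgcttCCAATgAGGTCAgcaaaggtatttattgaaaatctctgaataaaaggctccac
Klb: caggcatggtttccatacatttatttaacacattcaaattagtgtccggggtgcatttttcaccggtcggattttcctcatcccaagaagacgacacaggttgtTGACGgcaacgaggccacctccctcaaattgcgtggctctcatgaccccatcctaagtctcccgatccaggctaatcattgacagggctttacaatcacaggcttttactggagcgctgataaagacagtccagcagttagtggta

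The Klb window held 1 match, TGACG, 146 bases before the start on the + strand; 17.8% of the 32851 promoter windows of the same length hold that motif. The Fgf7 window held CCAAT and AGGTCA, which did not overlap, 53 and 47 bases before the start; these motifs are in 33.9% and 14.0% of all windows. The Fgf2 window held TGACG at 140 bases on the opposite strand and at 6 bases on the + strand, and GGGCGG at 49 bases, a motif in 32.7% of windows. TATAAA (12.4% of all windows), CCGGAA (12.0%) and CACGTG (6.02%) were in none of these 3. Base composition ran apart: G and C made up 62.4% of the Fgf2 window, 61.2% of that of Fgf10 and 66.8% and 72.8% of the pair of Fgfr3 windows. They made up 43.6% for Fgf7, 44.8% for Fgf9, 44% for Fgfr2 and 48% for Klb, where the median over all windows was 52.4%. These matches and shares are descriptions of the windows.

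Other genes of FGF signalling were counted on 8 lists of 85 genes. Of these, 76 had a probe set assigned to 1 gene and 51 were tested, each by its probe set with the highest mean signal. In all, 31 were higher in white, 6 in brown and 14 were not called, with a median log2 difference of -0.46. With the deposited scaling 42 were higher in white and with spike-in scaling 41, with 6 higher in brown under both. Of the genes named below as not called, Fgf11, Fgfbp3, Ext1, Braf, Spry2, Spry4 and Flrt1 were called higher in white under both of these scalings. Over all genes tested 32.2% were higher in white, 27.7% in brown and 60% in either, with a median of -0.04. Some called genes on the lists were absent on every array of the dimmer tissue and entered the test only through the brighter one. Fgf13, Grb2, Etv5 and Myc were present on white arrays alone, and Fgf14 on brown arrays alone. Those of the heparan sulfate list are named below.

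The remaining secreted ligands were mostly not detected in either fat: 10 of 12 were absent on all 6 arrays, Fgf17 was present on 1 brown array, and Fgf23, a hormone of phosphate balance, was the 1 tested member (log2 difference 0.27, limma adjusted p = 0.642; -0.19 with the deposited scaling). The intracellular FGF homologous factors, which bind sodium channels and not receptors, went both ways. Fgf13 had 36.3, 8.41 and 19.8 in brown, all absent, and 98.7, 65.2 and 64.4 in white, at least 4.09-fold higher there (limma adjusted p = 0.00537). Fgf14 had 45.2, 51.2 and 50.5 in brown and 6.63, 9.21 and 10.3 in white, all absent, at least 5.71-fold higher in brown (limma adjusted p = 0.000326). Fgf11, with 59.9 to 89.8 in brown and 72.7 to 88.0 in white, was not called.

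Fgfrl1, a receptor that lacks the kinase domain, had 1089, 999.6 and 952 in brown and 2837, 2717 and 2708 in white, a log2 difference of -1.44 (limma adjusted p = 6.18e-08). Of its list, Fgfbp3, an FGF carrier protein, was not called (-0.27), and Fgfr4, Kl and Fgfbp1 were not tested. Fgfr4 was present on 1 brown array, and Kl, alpha-klotho, and Fgfbp1 were absent on all 6. The heparan sulfate proteoglycans, which hold FGFs at the cell surface, and the enzymes that make their chains had 15 of 19 tested genes higher in white, 0 in brown and 4 not called (median -0.90). Sulf1 and Sulf2 trim sulfate from these chains outside the cell; Sulf1 had a log2 difference of -1.82 and Sulf2 was at least 3.57-fold higher in white. Syndecan-1 (Sdc1) was at least 3.34-fold higher in white. Sdc4 (0.51) and the chain polymerase Ext1 (-0.29) were not called. Sdc4 ran from 166 to 517 in brown, and without brown replicate 1, the lowest array, it was called higher in brown (0.92, limma adjusted p = 0.0292). Without brown replicate 2, the highest array, its difference was 0.11 (limma adjusted p = 0.778). With the deposited and with spike-in scaling it was 0.002 (limma adjusted p = 0.997 and 0.995).

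Of 11 tested adaptors and MAP kinase genes, 6 were higher in white, 1 in brown and 4 were not called (median -0.32). Gab1 (-1.08), Plcg1 (-0.51) and Grb2 (at least 2.01-fold), which link receptors to their pathways, were higher in white. Map2k2, one of the kinases that activate ERK, was higher in brown (0.90), while Map2k1 (0.07) and Braf (-0.14) were not called; with the deposited scaling both were called higher in white, Map2k1 at -0.35 (limma adjusted p = 0.0051) and Braf at -0.61 (0.000542). With spike-in scaling Map2k1 was not called (-0.35, limma adjusted p = 0.0596). Among 7 feedback inhibitors, 4 were higher in white, 1 in brown and 2 were not called (median -0.51). Spred1 (-1.40), Cbl (-0.91) and Spred2 (-0.72) were higher in white, and Spry2 (-0.24) and Spry4 (-0.17) were not called. Dusp6, the ERK phosphatase that FGF signalling induces, was higher in brown, with 624, 635 and 718 against 265, 255 and 233 (log2 difference 1.39, limma adjusted p = 1.39e-06).

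Cdh2, N-cadherin, an adhesion protein that binds Fgfr1, had 307, 362 and 333 in brown and 29.9, 33.3 and 42.4 in white (log2 difference 3.26, limma adjusted p = 1.77e-07). Flrt2, a membrane protein of a family that binds FGF receptors, had 34.0, 31.4 and 34.3 in brown and 309, 276 and 266 in white (-3.09, limma adjusted p = 1.08e-07), and Flrt1 was not called (-0.36). Of the 5 tested target genes, Fos (1.40) and Egr1 (1.37), which many stimuli induce, were higher in brown. Ccnd1 (-1.12), Etv5 (at least 3.10-fold) and Myc (at least 5.62-fold) were higher in white. Dusp6, Egr1, Fos, Map2k2, Cdh2 and Fgf14 are the 6 genes higher in brown of the 51.

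**Figure D3:**
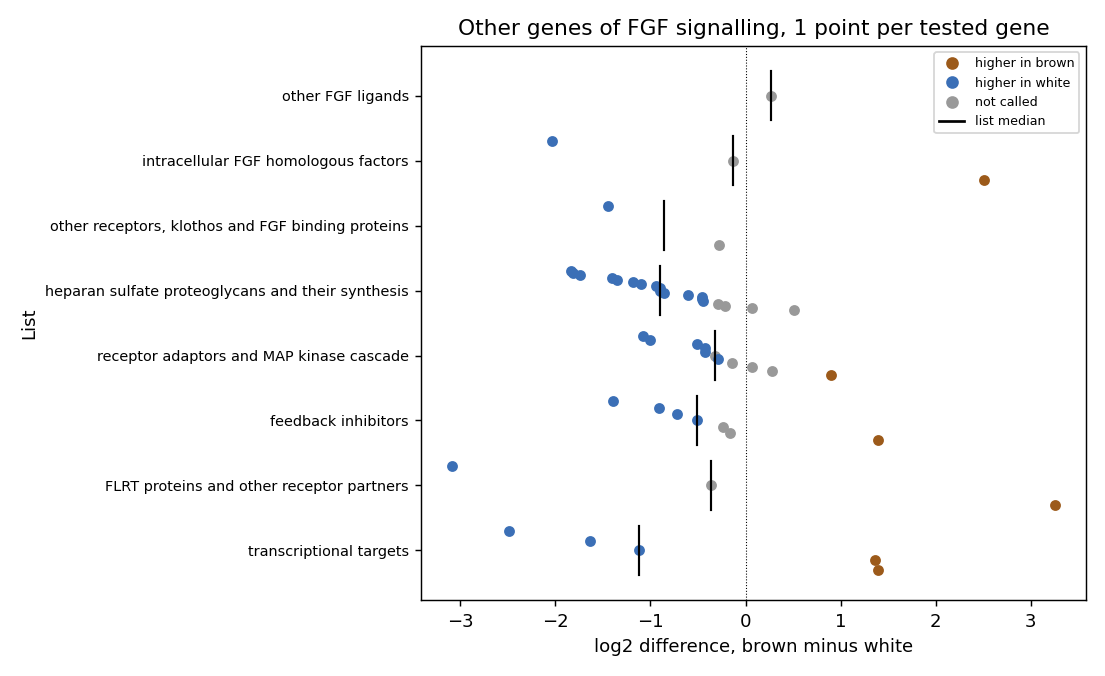
log2 difference, brown minus white (x axis), of the 51 tested genes on the 8 lists of FGF signalling (y axis), 1 point per gene, coloured by call; black bars are list medians. The heparan sulfate list has 15 points higher in white and none in brown, and the 6 points higher in brown are spread over 5 lists.

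Markers of other cell types moved with the tissues. Sums over a list took each gene's probe set with the highest mean signal, tested or not. They add probe sets whose levels cannot be compared, so the brightest weigh most. All 9 mesothelial markers were higher in white, their summed signal being 306 to 329 on the brown arrays and 4104 to 4151 on the white arrays. Of the 9, 6 were absent on all brown arrays. Among them Slpi had mean signals of 35.7 in brown and 1274 in white, and Upk3b 34.2 and 1033. All 8 macrophage markers were higher in white, with sums of 2609 to 3092 and 18083 to 18833, among them Lyz2 (630 and 5733) and Csf1r (938 and 4954). Of 8 fibroblast and progenitor markers 7 were higher in white, with sums of 7672 to 8208 and 26313 to 27078, among them Col3a1 (4022 and 10561) and Dcn (2252 and 10549); Pi16 was not called. Of 6 endothelial markers 3 were higher in white, with sums of 2029 to 2216 and 2694 to 2856. Of these, Cdh5 (352 and 734) was higher in white and Kdr (843 and 820.3) was not called. In whole tissue, fewer cells of a type and less RNA per cell cannot be told apart, and the part of these cells in the Fgf1, Fgfr1 and heparan sulfate differences was not tested.

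The brown adipocyte list had 7 of 7 markers higher in brown (sums of 32965 to 33425 and 206 to 348), among them Ucp1 and Cidea (10697 and 42.6), and the white adipocyte list 5 of 5 higher in white (435 to 495 and 19289 to 21341), among them Nnat (299 and 10443) and Sncg (29.3 and 3803). Of 3 markers of both kinds 1, Adipoq (8736 and 12062), was higher in white, and Fabp4 (13686 and 13981) was not called. Mural and smooth muscle markers had 3 of 4 higher in white, among them Acta2 (828 and 2380), and 1, Rgs5 (3107 and 2730), higher in brown, with sums of 4032 to 4218 and 5374 to 5772. Of 3 Schwann cell markers 2 were higher in brown, S100b (567 and 22.3) and Mbp (202 and 83.9). Sox10 (134 and 101) was not called, and its tissues overlapped (log2 difference 0.39, limma adjusted p = 0.119). Sums of this list were 939 to 1189 and 307 to 346, and 1 of the probe sets summed was absent on all 6 arrays. For that gene the sum did not use the tested probe set whose means are given here. Markers of the epididymis, the organ beside the white depot, were absent on all 6 arrays (5 of 5), among them Defb15 and Spink2. Of 5 skeletal muscle markers 1, Acta1 (81.6 and 180.4), was tested and not called, its brown signals being 97.7, 145 and 2.16. Ckm was absent on all 6 arrays, and Myh4 was present on 2 brown arrays and on no white array. Sums over the list were 133 to 408 and 258 to 295.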

How the data were processed

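Per the file headers, each array file deposited by the authors lists a linear signal intensity with a detection call and detection p-value for each of 45101 probe sets. For software version and scaling, the sources used here give nothing. The deposited series table holds other intensities of unstated processing, with column medians of 62.9 to 64.3 (named brown) and 55.9 to 56.8 (named white); whether it is centred is unknown, and it served only to check direction. Control probe sets (64) were left out, the 1 signal of 0 was set to 0.1, and log2 signals were quantile-normalised. With limma 3.58.1 (R 4.3.3, trend in eBayes), tests ran on the 19819 probe sets with 3 or more present calls. The fit was tested on simulated data with 50 of 19819 probe sets changed at each size. It recovered 8% of log2 differences of 0.5, 48% of those of 1 and 78% of those of 2. Far more probe sets were called in the arrays here, so these shares need not carry over. A gene not called may still differ. Of 45037 probe sets 34945 have 1 gene symbol, 932 several and 9160 none. Looking symbols up by gene ID changed 0 of 34741. No coordinates are given for probe sets, since no build is named.

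Genes on lists are represented by the tested probe set with the highest mean signal. Named genes are every member, up to 3 called genes per direction and 2 bright genes not called from each list, 2 markers per list, taken by mean signal to limit what is named and not to rank levels, and the 3 most alike profiles; others named are said to be so or stand in a count of 5 or fewer. For a bound, the dim tissue's log2 mean took, array by array, the probe set's signal or the smallest present-called signal, whichever was larger. Members and lists were chosen with earlier results of these data known. Alternatives were other scalings, filters, an added 64 units, a replicate block, no trend and leaving out each array.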

Additional observations from a re-analysis of the deposited data

How the results depend on the processing

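The calls of both Fgf1 probe sets, all 3 Fgfr1 probe sets and their direction were kept under every alternative that tested them. Over all probe sets tested the median log2 difference was -0.06 with quantile normalisation, -0.53 with the deposited and with spike-in scaling, -0.08 with median centring and -0.05 with centring on probe sets present on all 6 arrays, which was chosen after seeing the data. The count of member probe sets higher in white was 6, but 11 with the deposited and 12 with spike-in scaling, and the count higher in brown was 1, but 0 with spike-in scaling. Those added were Fgf2, Fgf10, Fgf9 1438718_at and both tested Fgfr2 probe sets, and with spike-in scaling also Fgf9 1420795_at. Pathway genes higher in white were 31, against 42 (deposited) and 41 (spike-in) under these scalings, and 19 of the 36 still tested when presence on all 6 arrays was asked for. Leaving out 1 array gave 5 to 7 member probe sets higher in white, 1 higher in brown, 30 to 31 pathway genes higher in white and 6 to 7 in brown.

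Signs turned only among values not called in the main fit. These were Fgf7 1422243_at (-0.21 with both scalings), Fgf23 (-0.19 with both, and -0.066 to 0.69 when 1 array was left out, the lowest without white replicate 2) and Map2k1 (-0.35 with both). With 1 array left out, Fgf9 1420795_at ran from -0.43 to 0.12, Fgf11 from -0.27 to 0.020 and Spry4 from -0.43 to 0.014, the highest each without brown replicate 1; the cause was not tested. Deviations of same-numbered arrays correlated at 0.02, -0.01 and -0.05, and those of differently numbered arrays at -0.05 to 0.07. These values cannot show whether same-numbered arrays came from the same mouse. With the replicate block the counts were 6 and 1 for members and 31 and 6 for pathway genes, and Klb kept its difference of 0.77 (limma adjusted p = 0.000876). Signals close to background limit Fgf2, Fgf7, Fgf9, Fgf10 and Fgf16.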
